A study of Mus musculus with 12 samples.

Results

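The transcripts described here are those of 10 mouse genes of the Notch pathway. They include the receptors Notch1 and Notch2, the ligands Jag1 and Dll4, and the nuclear proteins Rbpj and Maml1. The others are the known transcriptional targets Hes1, Heyl and Nrarp, and Hes6, a relative of Hes1 that is only grouped with the targets here. Each symbol matched 1 Ensembl identifier among the 55357 that the liver table and the cell table both listed. The genes were selected on the measured liver levels of Hes1, which were lower in esculetin-treated mice. The liver contrast was thus used in the choice and is described without p-values of the 10 genes. Counts of members called there are no test. The contrast in the cells was not named in that choice, and its tests are given.

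RNA-seq was performed on 12 libraries in 4 groups of 3. The 6 liver libraries came from wild-type male C57BL/6J mice aged 8 to 9 weeks, which received esculetin, a coumarin found in plants, by gavage at 90 mg/kg/day or its vehicle, 2.5% Tween-80, on 7 days. All of these mice, the controls included, ate a 10% fat diet for 4 days and a 60% fat diet (percent of kcal) for 3 days, and each liver sample was prepared from a pair of mice. The other 6 libraries were prepared from a mouse macrophage line, RAW264.7, whose cells all received 25 µg/mL DIL-oxLDL, a dye-labelled oxidized lipoprotein, for 24 hours with esculetin at 40 µg/mL or, as controls, DMSO, the solvent. Nothing in the labels says that the dishes of this 1 line were separate cultures, so p-values in the cells measure the spread between samples that may be technical replicates.

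In Notch signalling, a ligand of the Jagged or Delta-like family on a neighbouring cell binds a Notch receptor, which is then cut by an ADAM protease and by gamma-secretase. The freed intracellular domain enters the nucleus and joins the DNA-binding protein RBPJ and a Mastermind-like coactivator, and transcription of HES and HEY family repressors follows. In the liver the pathway is known for its part in bile duct development and in the endothelium, and in macrophages Notch receptors and RBPJ are known for roles in inflammatory gene expression.

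Total counts ran from 14659876 to 20346460 per liver library and from 13752842 to 20001959 per cell library. Levels are given as CPM, counts scaled to library size with factors from the trimmed mean of M-values (TMM), and 3 counts were worth 0.148 to 0.195 CPM in the liver and 0.146 to 0.220 CPM in the cells. All 5 hepatocyte markers, such as Alb and Cps1, were above 1 CPM in the liver, and in the cells their summed level was at most 0.0973 CPM while all 6 macrophage markers, such as Csf1r and Lyz2, were above 1 CPM. In a principal component analysis of the livers, control replicate 1 stood apart on component 1 (39.9% of the variance), at -47.9 against -3.44 to 19.4 for the others. Liver results are therefore also given without that library.

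Hes1 was the member with the largest difference in liver, and it had at most 2 counts in any cell library. In the cells, where 57.7% of all tested genes were called, Rbpj and Maml1 of the nuclear complex rose and Hes6 fell. Jag1 was also called higher and Notch1 lower, with calls that several alternative fits did not keep. Of the other members, 8 were tested in liver and none was called there, where 0.0859% of all tested genes were called.

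Hes1 (ENSMUSG00000022528, chromosome 16, 29882134 to 29886643, plus strand, GRCm39) encodes a basic helix-loop-helix repressor that also binds N boxes in its own promoter. The 250 bases before the canonical start sites of 3 targets are shown because the known route from Notch to Hes1 runs through RBPJ sites near the start. Heyl and Nrarp are shown beside it. They were read 5' to 3' on the gene's strand from GRCm39 at chr16:29883877-29884126 (plus strand) for Hes1, chr4:123127099-123127348 (plus strand) for Heyl and chr2:25070520-25070769 (plus strand) for Nrarp. The Hes1 window lies in an intron of longer annotated Hes1 transcripts that start upstream. Capitals mark the RBPJ core TGGGAA and the N box CACNAG on either strand.
Hes1: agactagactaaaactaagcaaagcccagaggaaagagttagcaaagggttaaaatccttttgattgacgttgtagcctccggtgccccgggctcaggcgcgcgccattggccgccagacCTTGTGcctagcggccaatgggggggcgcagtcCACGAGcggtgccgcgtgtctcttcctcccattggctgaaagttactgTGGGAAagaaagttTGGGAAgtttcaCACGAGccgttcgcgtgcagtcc
Heyl: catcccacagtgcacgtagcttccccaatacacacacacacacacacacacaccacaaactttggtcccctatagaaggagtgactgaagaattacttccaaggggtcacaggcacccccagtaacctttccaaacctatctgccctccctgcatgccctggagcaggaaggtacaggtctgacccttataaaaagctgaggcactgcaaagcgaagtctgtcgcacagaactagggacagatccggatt
Nrarp: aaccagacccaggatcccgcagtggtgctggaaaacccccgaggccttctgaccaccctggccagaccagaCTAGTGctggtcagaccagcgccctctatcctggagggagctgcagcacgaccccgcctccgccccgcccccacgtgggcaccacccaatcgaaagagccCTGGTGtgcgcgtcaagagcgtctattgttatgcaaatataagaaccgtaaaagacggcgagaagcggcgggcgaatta

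The Hes1 window held 2 RBPJ cores on the gene's strand, at 49 to 44 and 35 to 30 bases before the start, the first of them within the longer form GTGGGAA. It also held 3 N boxes. The Heyl window held neither motif, and the Nrarp window held 2 N boxes and no RBPJ core. Among the other members, the window of Rbpj held 1 RBPJ core, and those of Hes6, Notch1, Notch2 and Dll4 held 1 N box each. Over 21757 protein-coding genes, windows of the same length held TGGGAA in 22.75%, GTGGGAA in 5.474% and CACNAG in 36.48%. These matches describe letters only, sites outside the windows were not searched, and binding was not measured.

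The liver comparison asked what esculetin changed in mice on the high-fat diet. Hes1 measured 7.99, 9.47 and 8.39 CPM in the 3 control livers and 3.60, 3.77 and 3.04 CPM in the 3 esculetin livers, from 130 to 192 and from 47 to 66 counts. Every esculetin library lay below every control library, and the gap between the groups was wider than the spread within either. The log2 fold change was -1.31 (SE 0.20, n = 3 against 3), and -1.36 without control replicate 1.

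Of the other genes grouped as targets, Hes6 lay on the opposite side, Heyl overlapped between the groups and Nrarp could not be tested. Hes6, a relative of Hes1 that is known to antagonize it, measured 72.6, 74.0 and 85.1 CPM in the controls and 88.1, 94.1 and 87.6 CPM with esculetin. All 3 esculetin libraries lay above the controls, by a log2 fold change of 0.22 (SE 0.12), and 0.18 without control replicate 1. Heyl, a repressor of the HEY family, measured 3.62, 2.52 and 3.44 CPM against 2.67, 2.92 and 3.24 CPM, and the groups overlapped (log2 fold change -0.11, SE 0.25, and -0.0091 without control replicate 1). Nrarp, which encodes a feedback inhibitor of the Notch complex, had 6, 11 and 10 counts against 6, 2 and 8, too few to be tested.

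**Figure D1:**
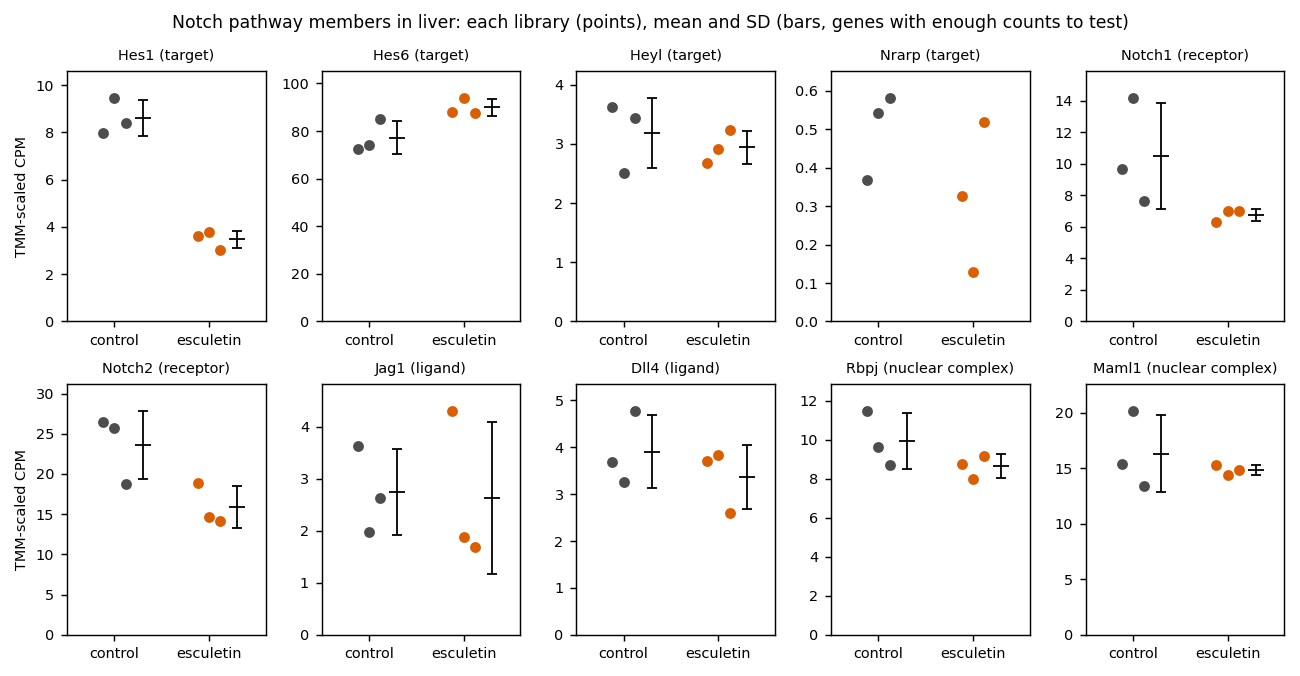
Levels of the 10 members in liver in TMM-scaled CPM on linear axes from 0, with 1 point per library (grey control, orange esculetin) and the mean with its SD beside the points for the 9 tested genes. The Hes1 points split at 7.99 and above against 3.77 and below, whereas those of Heyl, Nrarp, Notch2, Jag1, Dll4, Rbpj and Maml1 overlap.

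Both receptors were lower on average with esculetin. Notch1, a receptor known from lymphoid and endothelial development, measured 9.64, 14.2 and 7.63 CPM in the controls and 6.32, 7.01 and 6.99 CPM with esculetin. The groups did not overlap, and the log2 fold change was -0.64 (SE 0.22), which became -0.35 without control replicate 2 and -0.69 without control replicate 1. Notch2, the receptor known to be mutated in Alagille syndrome along with JAG1, measured 26.4, 25.7 and 18.8 CPM in the controls and 18.9, 14.7 and 14.2 CPM with esculetin. The lowest control and the highest esculetin library met, with a log2 fold change of -0.57 (SE 0.17), and -0.48 without control replicate 1.

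The ligands and the nuclear complex overlapped between the groups in liver. Jag1 measured 3.62, 1.97 and 2.62 CPM against 4.31, 1.88 and 1.68 CPM, and its log2 fold change of -0.04 (SE 0.38) became -0.63 without esculetin replicate 1 and 0.22 without control replicate 1. The direction for Jag1 was therefore not settled by these libraries. Dll4, a ligand of endothelial cells, measured 3.69, 3.26 and 4.78 CPM against 3.71, 3.83 and 2.59 CPM (log2 fold change -0.21, SE 0.26). The value for Dll4 was -0.24 without control replicate 1, -0.055 without control replicate 3 and -0.063 without esculetin replicate 3. Rbpj, the DNA-binding partner of the receptor's intracellular domain, measured 11.5, 9.62 and 8.68 CPM against 8.77, 7.99 and 9.19 CPM (log2 fold change -0.20, SE 0.17). The value for Rbpj was -0.078 without control replicate 1 and -0.30 without control replicate 3. Maml1, a Mastermind-like coactivator, measured 15.4, 20.2 and 13.4 CPM against 15.3, 14.4 and 14.8 CPM (log2 fold change -0.14, SE 0.17), and the esculetin libraries lay inside the range of the controls. The value for Maml1 was -0.18 without control replicate 1, 0.042 without control replicate 2 and -0.28 without control replicate 3, so its direction was not settled either.

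Of the 10 members, 9 passed the filter on low counts in liver. Hes1 alone was called at an edgeR adjusted p under 0.05 (1 of 9), where 0.0859% of the 12813 genes tested were called. That call restates the choice of Hes1 and is no test of it. The count of members called was 0 when control replicate 2 or any single esculetin replicate was left out. Groups did not overlap for 3 of 9 members (Hes6 higher, Hes1 and Notch1 lower), against 14.5% of all tested genes. The fitted change was below 0 for 8 of 9, with a median of -0.20 on the log2 scale against -0.02 for all tested genes. Nothing is read from these counts, since Hes1 in this contrast led to the choice of the genes.

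In bulk tissue, fewer cells of a type and less RNA per cell cannot be told apart. Some marker levels moved with Hes1, and the counts below are read against the 14.5% of all tested genes whose groups did not overlap. Of the 5 hepatocyte markers, Ttr was lower and Cps1 and Serpina1a higher without overlap. The summed level of the 7 cholangiocyte markers was 55.2 to 56.9 CPM in the controls and 47.8 to 54.2 CPM with esculetin, and 1 of the 7, Sox9, which is also a known Notch target, did not overlap between the groups. Sox9 measured 7.68, 5.23 and 5.48 CPM against 4.74, 2.92 and 3.56 CPM. The 6 stellate cell markers summed to 202 to 222 CPM in the controls and 164 to 201 CPM with esculetin, with none of the 6 separating the groups. Sums overlapped for the 7 endothelial markers (189 to 208 against 198 to 204 CPM), of which 2, Cdh5 and Oit3, were lower without overlap. They also overlapped for the 6 Kupffer cell markers (297 to 345 against 271 to 310 CPM), of which Marco and Adgre1 were lower without overlap, Marco at 4.34 ± 0.356 CPM against 2.54 ± 0.320 CPM (SD, n = 3). Of the 6 general macrophage markers, 3 were lower without overlap (Csf1r, Cd68 and Adgre1), and the sums overlapped at 141 to 181 against 145 to 155 CPM. Adgre1 is on both the Kupffer cell and the macrophage list. No marker of these lists was at 0 in a liver group, and the part of these cells in the Hes1 result was not tested.

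The wider pathway was described with 62 further genes, compiled by role, of which 52 were tested in liver. None was called by edgeR (0 of 52), where 0.0859% of all tested genes were called. Of the 52, 1, Ep300, passed an unadjusted edgeR p under 0.05, where 8.37% of all tested genes did. DESeq2 and limma-voom also called 0 at an adjusted p under 0.05, and their shares over all tested genes are not given here. Ep300, a histone acetyltransferase recruited by Mastermind proteins, measured 16.7, 12.4 and 10.8 CPM against 8.07, 10.5 and 7.38 CPM (log2 fold change -0.62, SE 0.20, edgeR adjusted p = 0.43). Groups did not overlap for 8 of the 52, of which 2 were higher and 6 lower with esculetin, against the 14.5% of all tested genes, and the median log2 fold change was -0.13. Of the 7 other HES and HEY family genes, only Hey1 had enough counts, at 13, 10 and 19 against 7, 4 and 13, and these overlapped.

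Across the 6 liver libraries, the genes whose log2 CPM followed Hes1 most closely among 8615 genes at 5 CPM or more were Tmem184b (Pearson r = 0.989), Slc3a2 (0.982), Snx7 (0.981), Ets2 (0.977) and Nectin1 (0.977). All 5 were lower in every esculetin library than in any control, and none is in the pathway list. Slc3a2, a subunit of amino acid transporters, averaged 39.8 ± 2.06 CPM in the controls and 29.0 ± 0.587 CPM with esculetin (SD, n = 3). Ets2, an ETS family transcription factor, averaged 27.7 ± 1.02 and 23.4 ± 0.989 CPM. Among the members Notch2 stood at rank 290 (r = 0.826), Notch1 at rank 433 (0.780) and Hes6 at rank 8361 (-0.784). The 6 points share the split between treatments, so these values describe likeness and carry no test.

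**Figure D2:**
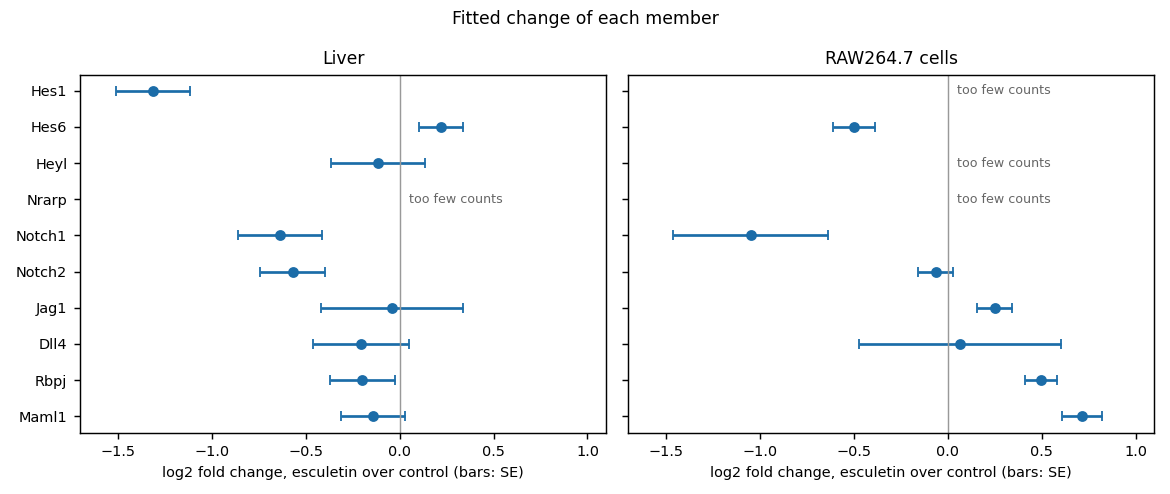
Fitted log2 fold change of each member, esculetin over control, in liver (left) and RAW264.7 cells (right), with bars of 1 SE and a line at 0. Hes1 stands at -1.31 in liver and has too few counts in the cells, where Rbpj (0.50) and Maml1 (0.72) lie above 0 and Hes6 (-0.50) and Notch1 (-1.05) below it.

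The comparison in the cells asked what esculetin changed in macrophages loaded with oxLDL. The canonical targets were hardly transcribed there in either group. Hes1 had 0, 0 and 2 counts without esculetin and 1, 0 and 1 with it. Heyl had 0 in all controls and 3, 0 and 0 with esculetin, and Nrarp had 1, 0 and 0 against 0 in all. A difference in these 3 genes was not detectable at this depth, and no fold change was computed. None of the 7 other HES and HEY family genes had enough counts to be tested, and Sox9 was at 0 in all 6 libraries.

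Of the 4 genes grouped as targets, Hes6 alone had enough counts to be tested. It measured 21.4, 23.4 and 24.0 CPM without esculetin and 16.2, 16.8 and 15.6 CPM with it, without overlap. It fell by 0.50 on the log2 scale (SE 0.11, edgeR adjusted p = 0.00256) and kept this call in all 14 alternative fits. The study also asked for a fold over 1.5, which Hes6 did not reach (limma-voom log2 fold change -0.50). In liver the Hes6 libraries with esculetin lay above the controls, and the difference between both systems was not tested.

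Rbpj and Maml1 rose. Rbpj measured 348, 309 and 307 CPM without esculetin and 472, 459 and 430 CPM with it. The lowest treated library was well above the highest control, and the log2 fold change was 0.50 (SE 0.09, edgeR adjusted p = 0.000438). Maml1 measured 38.8, 45.1 and 42.2 CPM against 60.8, 68.6 and 77.4 CPM, and its log2 fold change was 0.72 (SE 0.11, edgeR adjusted p = 0.000175). Both calls held in all 14 alternative fits. Maml1 also passed the study's fold of 1.5 in limma-voom (log2 fold change 0.71), which Rbpj did not reach (0.50).

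The receptors differed from each other in the cells. Notch2, the abundant receptor of this line, measured 136, 139 and 145 CPM without esculetin and 125, 125 and 151 CPM with it. The groups overlapped, and no change was detected (log2 fold change -0.06, SE 0.09, edgeR adjusted p = 0.58). Notch1 rested on 15, 31 and 30 counts against 9, 8 and 12, or 0.778, 1.67 and 1.46 CPM against 0.659, 0.545 and 0.669 CPM. It was lower with esculetin with a log2 value of -1.05 (SE 0.41, edgeR adjusted p = 0.0473), and this call was lost in 10 of 13 alternative fits. The adjusted p from edgeR was 0.193 without control replicate 2, 0.144 without control replicate 3, and 0.0739, 0.130 and 0.0812 without esculetin replicates 1, 2 and 3.

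Of the ligands, Jag1 measured 57.6, 53.2 and 48.6 CPM without esculetin and 61.6, 66.1 and 61.9 CPM with it. The treated libraries all lay above the controls, and the fitted log2 change was 0.25 (SE 0.09, edgeR adjusted p = 0.0364). The call was lost without control replicate 2 (edgeR adjusted p = 0.0875), control replicate 3 (0.159) or esculetin replicate 2 (0.149), and when scaled by library size only (0.103) or unfiltered (0.161). Dll4 had 23, 7 and 21 counts against 21, 12 and 8, and no change was detected (log2 fold change 0.07, SE 0.54, edgeR adjusted p = 0.923).

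**Figure D3:**
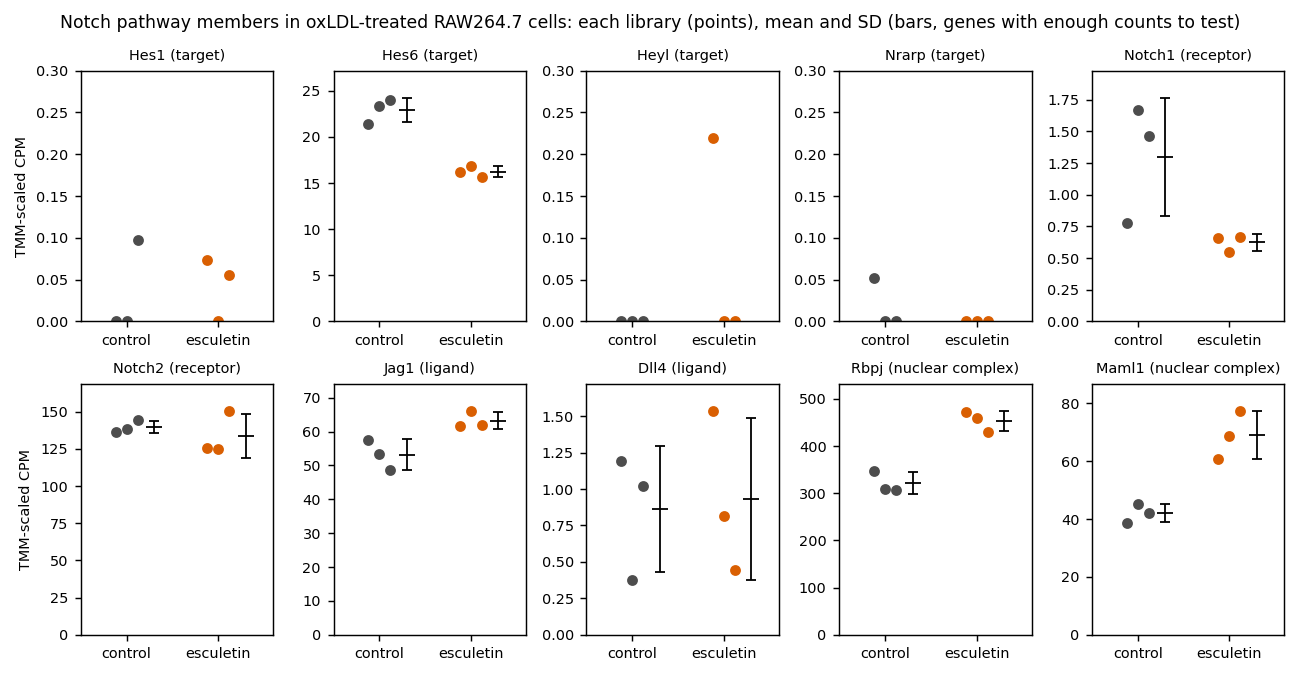
Levels of the 10 members in oxLDL-treated RAW264.7 cells in TMM-scaled CPM on linear axes from 0, with 1 point per library (grey control, orange esculetin) and the mean with its SD for the 7 tested genes. Rbpj, Maml1 and Jag1 libraries with esculetin lie above all controls and Hes6 and Notch1 below, while Hes1, Heyl and Nrarp stay at 0.220 CPM or less.

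In all, 7 of the 10 members passed the filter in the cells, and 5 of 7 were called, 3 higher and 2 lower. Over the 13277 genes tested, 57.7% were called, 28.7% as higher and 29% as lower, and the 5 of 7 members are to be read against that share. Groups did not overlap for 5 of 7 members, against 64.1% of all tested genes. The median log2 fold change of the members was 0.07 against -0.01 for all tested genes. The number called dropped to 3 in the fits that left out control replicate 2, control replicate 3 or esculetin replicate 2.

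Per length, the order of the members differed between the systems. In control livers Hes6 led at 26.9 CPM per kb of exon, followed by Hes1 (2.55), Maml1 (2.53) and Notch2 (2.10). Maml1 overlapped with both Hes1 and Notch2, and these last 3 lay below Hes6 and above Dll4. Dll4 (0.990), Rbpj (0.773), Notch1 (0.737), Heyl (0.603) and Jag1 (0.460) formed a run of overlapping levels, and Nrarp was lowest at 0.193 CPM per kb. With esculetin Hes1 averaged 1.03 CPM per kb and stood at rank 4, behind Notch2 at 1.41. In control cells Rbpj led at 25.0 CPM per kb, followed by Notch2 (12.4), Jag1 (8.92), Hes6 (7.98) and Maml1 (6.51), of which Jag1 and Hes6 overlapped. Dll4 (0.219) and Notch1 (0.0914) were far below these and overlapped with each other. With the length of the canonical transcript in place of all exons, Hes6 stood at rank 2 in control cells and Rbpj at rank 5 in control livers, ahead of Notch1 and Dll4. In esculetin livers Hes1 then stood at rank 3 (2.27 CPM per kb) and Notch2 at rank 5 (1.51), the reverse of their order by all exons.

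Around the members, 51 of the 62 other pathway genes were tested in the cells, 13 were called higher and 13 lower, against 28.7% and 29% of all tested genes, and their median log2 fold change was 0.04. The calls by role that follow are read against those shares and the 57.7% in both directions. The largest difference was that of Notch4, a receptor best known from endothelium, with 12, 14 and 11 counts without esculetin and 84, 61 and 70 with it. This is 0.622, 0.753 and 0.535 CPM against 6.15, 4.16 and 3.90 CPM, and the fitted log2 difference was 2.88 (SE 0.31, edgeR adjusted p = 1.59e-05). Notch3 had at most 14 counts in a library and was not tested.

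Genes that act on the ligands and on the sugar chains of the receptors went both ways. Of the ubiquitin ligases that drive ligand endocytosis, Neurl1b fell from 48.0, 44.6 and 47.3 CPM to 13.8, 11.0 and 7.58 CPM, a log2 fold change of -2.12 (SE 0.18). Mib2 fell by 1.17 and Mib1 rose by 0.54 on the log2 scale. Of the 5 glycosylation genes, the fringe genes Mfng (-1.24) and Rfng (-0.38) fell, and Pofut1 (0.37) and Poglut1 (0.35), which add fucose and glucose to the receptor, rose.

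Receptor cleavage genes went both ways too, with 3 of 10 called higher and 3 lower, near the 57.7% of all tested genes. Adam17, a protease of the ADAM family, rose from 190, 165 and 169 CPM to 332, 343 and 361 CPM (log2 fold change 0.98, SE 0.09, edgeR adjusted p = 3.72e-06). Adam10, of the same family, measured 199, 166 and 170 CPM without esculetin and 185, 206 and 197 CPM with it. Its groups overlapped, and it was not called (log2 fold change 0.14, SE 0.09, edgeR adjusted p = 0.228). Of the gamma-secretase subunits, Ncstn (1.17) and Psen2 (0.91) rose, and Aph1c (-0.61), Psenen (-0.60) and Aph1a (-0.46) fell, all as log2 fold changes. Of 9 genes of receptor turnover and inhibition, the ubiquitin ligase genes Fbxw7 (0.80) and Itch (0.76) and the inhibitor Numb (0.61) rose, and Dtx4 (-0.34) fell.

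In the nucleus, 2 of 7 coactivator genes and 6 of 14 corepressor genes were called, where 57.7% of all tested genes were. Crebbp rose by 0.49 and Maml3 fell by 0.51 on the log2 scale, opposite to Maml1 among the Mastermind-like genes. Of the corepressor genes, Hdac1 rose from 32.0, 32.8 and 33.2 CPM to 66.6, 90.6 and 108 CPM (log2 fold change 1.44, SE 0.15, edgeR adjusted p = 1.19e-05), and Ctbp1 rose by 0.47. The 4 called lower were Tle3 (-1.34), Tle1 (-0.88) and Tle4 (-0.37), whose Groucho products are known partners of HES proteins, and Tle5 (-0.55), a shorter relative. Tle2, also of this family, had 7 to 10 counts without esculetin and 14 to 15 with it and was not called (log2 fold change 1.01, SE 0.40, edgeR adjusted p = 0.0514). Tle3 measured 148, 148 and 154 CPM without esculetin and 66.4, 51.3 and 59.9 CPM with it. Of the 26 called genes, 23 held their call in all 14 alternative fits, which do not include the study's limit on fold. Maml3, Dtx4 and Rfng lost theirs when single libraries were left out, with edgeR adjusted p-values from 0.0560 to 0.0849.

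**Figure D4:**
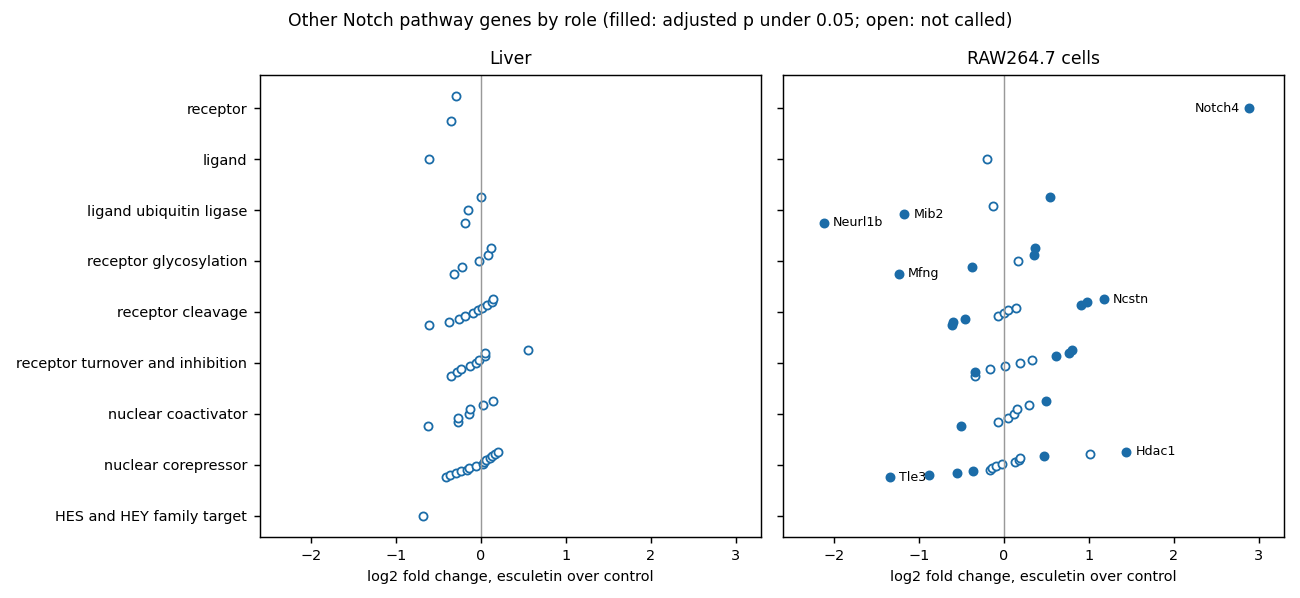
Log2 fold change, esculetin over control, of the tested genes among the 62 other pathway genes, in rows by role, in liver (left) and RAW264.7 cells (right), with filled points for genes called at an edgeR adjusted p under 0.05. No point is filled in liver, and in the cells 26 are, on both sides of 0 in most roles, from Neurl1b (-2.12) to Notch4 (2.88).

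The annotated spans of 9 of the 10 members, all but Heyl, are shared with another annotated gene. Hes1 shares bases with Gm60905 on the opposite strand. These spans include introns, and overlap of exons was not examined. Since counting by strand was not stated either, it cannot be told whether reads from such neighbours were counted for the member.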

How the data were processed

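RNA-seq libraries from mouse livers (6) and RAW264.7 cells (6) were analysed, 3 per group. The authors deposited raw read counts for each gene in 2 tables, with the liver and the cells counted separately. Per the study and the submitters' processing notes, libraries were made with the NEBNext Ultra kit, paired-end reads were aligned with HISAT2 2.2.1 and counted with featureCounts. The notes name the builds GRCm39 and mm10, the study names GRCm39, and counting by strand and the annotation release were not given in the sources used here.

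Symbols, coordinates and lengths came from the GENCODE M39 annotation of GRCm39, where 54749 of 55357 identifiers matched. The tables were fitted separately with edgeR 4.0.16 under R 4.3.3, by glmQLFit and glmQLFTest after filterByExpr and TMM scaling, with no term besides treatment. Two-sided p-values received a Benjamini-Hochberg adjustment across the whole table, and genes under 0.05 were called. Each SE was the absolute log2 fold change divided by the square root of F. With 3 libraries a side, the smallest p that exact permutation could give for a gene is 0.1, so p-values rest on the spread shared across genes. In simulated counts, edgeR called 78.57% of genes changed 2-fold and 95.92% of those changed 4-fold in the liver (12651 genes). In the cells these were 80.61% and 96.94% (13080 genes). The simulation gave both tables the same number of changed genes. In the data, 0.0859% of tested liver genes and 57.7% of tested cell genes were called. The simulated percentages are therefore not the chance of a call in the data.

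The members, the gene lists and the marker lists were chosen, the latter by hand from general knowledge, with earlier results of these data known. All members were named. Of the other pathway genes, those with the largest called rise or fall by role were named (up to 3 each way), along with the 5 genes most like Hes1 by Pearson's r of log2 CPM (prior count 2). Adam10, Hey1, Ep300, Notch3, Tle2 and Tle4 were chosen after their values were seen. Likeness in the cells was not computed, since Hes1 was near 0 there.

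Alternatives were RLE factors, upper quartile, library size only, no filter, a filter of 1 CPM, DESeq2 1.42.0, limma-voom (limma 3.58.1), the study's criterion (unadjusted p under 0.05 and fold over 1.5 in limma-voom), a block for the replicate number and leaving out each library. Replicate numbers are shared by the groups, but nothing in the labels ties equal numbers to a shared batch or animal. Figures were drawn with Python 3.11.15 and matplotlib 3.10.9.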

Additional observations from a re-analysis of the deposited data

Results flagged for a closer look

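Among the 56 Notch pathway genes tested in both the liver and the cells, 5 had esculetin libraries entirely on one side of the controls in the liver and entirely on the opposite side in the cells. Over all 10449 genes tested in both, this held for 6.06%. The log2 fold change of Hes6 was 0.22 in liver and -0.50 in the cells. Tle1, a Groucho family corepressor gene, likewise stood at 0.20 in liver and -0.88 in the cells. The other genes were lower in liver and higher in the cells: Pofut1 with -0.22 and 0.37, Adam17 with -0.37 and 0.98, and Ep300 with -0.62 and 0.15. In liver none of the 5 was called by edgeR at an adjusted p under 0.05, and in the cells Ep300 was not. The difference between the systems was not tested. Without liver control replicate 1, the liver values were 0.18 for Hes6, 0.23 for Tle1, -0.25 for Pofut1, -0.21 for Adam17 and -0.43 for Ep300.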

How the results depend on the processing

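Shares of all tested genes called under the alternatives are not given here, so the counts below are not compared with them. In the main fit, 0.0859% of all tested genes were called in liver and 57.7% in the cells. In liver, the number of members called, which is no test since Hes1 led to the choice, was 1. It became 0 with library sizes as the only scaling, 2 with unfiltered counts and 2 by the study's criterion. That criterion also took the other pathway genes from 0 to 1. The number of members called ran from 0 to 1 when single libraries were left out, and the other pathway genes stayed at 0. The log2 fold change of Hes1 in liver ranged from -1.38 to -1.24 over 14 alternatives. In the cells, the number of members called was 5 and became 3 without a filter. It was 2 by the study's criterion (Maml1 and Notch1) and 3 to 5 when single libraries were left out. The other pathway genes called in the cells numbered 26, 16 by the study's criterion, and 24 to 29 when single libraries were left out. The log2 fold change of Dll4 in the cells turned to -0.27 without control replicate 2 and -0.48 without esculetin replicate 1, within a range of -0.48 to 0.43 over the single libraries left out. The cause was not tested.

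With the replicate number as a block, 1 member and 0 other pathway genes were called in liver, and 4 members and 27 other pathway genes in the cells. Deviations of equally numbered libraries correlated at 0.14, -0.0053 and 0.10 in liver and at 0.16, -0.030 and 0.080 in the cells. Deviations from a group mean of 3 libraries constrain one another, so these values cannot decide whether equal numbers pair the samples. Not every library correlated best with its own number. The 1 CPM filter left no value for Notch1 in the cells. The ranking by canonical transcript length was added after the data were seen. Depth limits Hes1, Heyl and Nrarp in the cells and Nrarp in liver, where the counts allow no comparison.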
